A study of Mus musculus with 4 samples.

Results

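Metallothioneins and antioxidant enzymes were represented by 10 genes chosen by name: the metallothioneins Mt1, Mt2 and Mt3, the stress enzymes Hmox1 and Nqo1, the glutathione peroxidases Gpx1 and Gpx4, the superoxide dismutases Sod1 and Sod2, and catalase, Cat. All 10 were found among the 18386 features of a table of RNA-seq counts from mouse cortex, where a feature is a gene with the counts of its transcripts added up. The deposited gene symbols named only 3 of the 10 exactly (Mt1, Mt2 and Sod2) and 9 when upper and lower case were treated alike. The transcript of Sod1 (ENSMUST00000023707) carried the symbol Gm8566, so all members were identified through their transcript identifiers. Each member had 1 transcript in the table except Gpx4, which had 2, giving 11 member transcripts.

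The comparison asked which transcripts differ between the cortex of mice that accumulate amyloid and that of wild type mice at 12 months of age. The APP group was 2 males of a line that goes back to B6.Cg-Tg (APPswe/PS1ΔE9) 85Dbo/Mmjax and carries the transgenes APPswe, a mutant amyloid precursor protein, and PS1ΔE9. The WT group was 2 males of C57BL/6J, and the labels give C57BL/6 as the strain background of both groups. No other treatment is named for either group. The libraries are called APP-3, APP-4, WT-1 and WT-2 after their columns. They held 28525117, 31392983, 43881196 and 35623228 counts in that order, so both WT libraries were deeper than both APP libraries. With 2 mice in each group, a two-sided exact permutation test of any single value cannot give a p below 0.333, and the tests given are those of edgeR's quasi-likelihood fit across all 18386 features, with Benjamini-Hochberg adjustment.

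The genes behind the transgenes separated the groups as labelled. App stood at 2679 and 2388 counts-per-million (CPM, counts scaled to each library's normalised size) in APP-3 and APP-4, against 857 and 905 CPM in WT-1 and WT-2. Its log2 fold change, APP over WT, was 1.52 ± 0.07 (standard error, SE; edgeR adjusted p 2.11e-05, higher in 2 of 2 APP libraries). Counts of App may hold reads of the transgene, which the table does not separate from those of the mouse gene. For Prnp, the gene from which the promoter of the transgenes in this line is taken, the log2 fold change was 1.71 (adjusted p 1.57e-05). The housekeeping genes Gapdh and Actb had log2 fold changes of -0.12 (adjusted p 0.593) and 0.00 (adjusted p 0.996). The sign for Actb, whose groups overlapped, varied with the library left out. Cortical tissue was visible in the neuron markers, all 13 of which were counted, including the cortical Tbr1 and Neurod6, with no marker at 0 in any library.

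Metallothioneins are small cysteine-rich proteins that bind zinc and copper and can take up reactive oxygen. MTF1, a transcription factor that senses zinc, drives Mt1 and Mt2 through metal response elements, and glucocorticoids and inflammatory signals also raise them. In brain, Mt1 and Mt2 are made largely in astrocytes, while Mt3 is the form most typical of the nervous system. Superoxide dismutases turn superoxide into hydrogen peroxide, which catalase and the glutathione peroxidases remove. Hmox1 and Nqo1 are classic targets of NRF2, a factor held back by KEAP1 and opposed at many promoters by BACH1, and acting through antioxidant response elements.

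None of the members was called at an adjusted p under 0.05 with a fold change of at least 1.5, the pair of thresholds taken from the study. The count was 0 of 10, where 0.881% of all features passed both thresholds. Without the fold threshold it was again 0 of 10, where 1.14% of all features passed and 1.02% passed with higher values in APP. The same count of 0 came from edgeR's likelihood ratio test, edgeR's exact test and DESeq2. At an unadjusted p under 0.05, edgeR's quasi-likelihood test gave 3 members, Mt1, Mt2 and Hmox1, where 12.1% of all features passed. All 3 were higher in APP, a direction in which 7.36% of features passed, against 4.78% in the other. DESeq2 gave 2 members at an unadjusted p under 0.05, and the likelihood ratio and exact tests gave 3 each. Without APP-4 the count past both thresholds was 2, where 2.58% of the 18341 features in that fit passed, and that with an adjusted p under 0.05 was 3, where 6.52% passed.

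Most members lay slightly higher in APP. Of the 10, 9 had a positive log2 fold change and 1 a negative one, with a median of 0.14. Over all features 9145 log2 fold changes were positive and 9241 negative, with a median of -0.00. In 7 members both APP libraries were above both WT libraries, which held for 21.3% of all features. In 0 members were both APP libraries below both WT libraries, which held for 21.4% of features. The remaining 3 members, Nqo1, Gpx4 and Sod2, had overlapping groups. No test of the list as a whole was made.

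**Figure D1:**
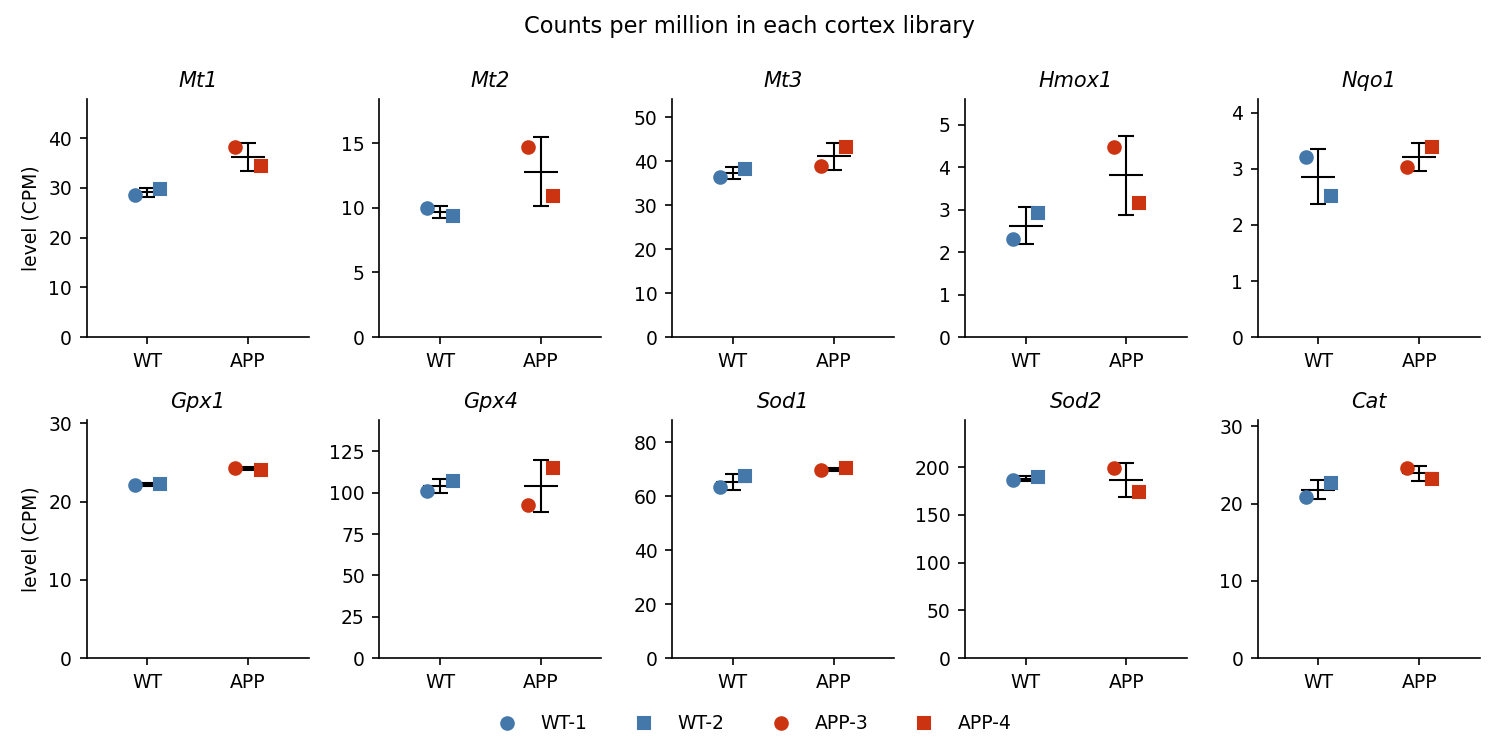
CPM of each member in each library, with WT in blue and APP in red, each on a vertical axis that starts at 0. Black lines are the group mean and 1 standard deviation (2 libraries per group); for Mt1 the APP libraries sit at 38.2 and 34.3 CPM, above the WT libraries at 28.5 and 29.7 CPM.

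The metallothionein genes lie side by side on the plus strand of mouse chromosome 8 (build GRCm38): Mt3 at chr8:94152607-94154146, Mt2 at chr8:94172664-94173568 and Mt1 at chr8:94179082-94180327. Mt3 and Mt2 are 18517 bases apart and Mt2 and Mt1 5513 bases, so that all 3 fit in 27721 bases. Hmox1 and Nqo1 are also on chromosome 8, which thus holds 5 of the 10 members. Each of the 3 metallothionein transcripts has 3 exons, over 549 bases in Mt1, 511 in Mt2 and 536 in Mt3.

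The promoters of the 3 metallothionein genes are printed because Mt1 and Mt2 were among the members with the 3 lowest p, while their neighbour Mt3 was not. The sequences are from RefSeq (GRCm38.p6), run 5′ to 3′ on the plus strand, and span 250 bases before to 50 bases after the start site. Capitals mark letters that match a metal response element, TGCGCNC or TGCACNC, or the antioxidant response element core TGACNNNGC, each searched on both strands. They cover chr8:94178839-94179138 for Mt1, chr8:94172368-94172667 for Mt2 and chr8:94152357-94152656 for Mt3.
Mt1: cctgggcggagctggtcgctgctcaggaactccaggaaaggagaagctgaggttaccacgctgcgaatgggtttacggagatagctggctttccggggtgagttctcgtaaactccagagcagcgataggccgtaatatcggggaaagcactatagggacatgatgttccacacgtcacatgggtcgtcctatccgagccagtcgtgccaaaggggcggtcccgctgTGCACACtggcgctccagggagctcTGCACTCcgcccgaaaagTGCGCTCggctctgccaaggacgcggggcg
Mt2: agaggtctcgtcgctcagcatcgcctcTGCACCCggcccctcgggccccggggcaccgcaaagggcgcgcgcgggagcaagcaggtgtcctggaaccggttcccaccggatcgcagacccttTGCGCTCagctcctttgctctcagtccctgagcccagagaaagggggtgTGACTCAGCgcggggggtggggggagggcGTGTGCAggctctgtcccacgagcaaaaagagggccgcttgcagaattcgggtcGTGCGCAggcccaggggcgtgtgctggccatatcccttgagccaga
Mt3: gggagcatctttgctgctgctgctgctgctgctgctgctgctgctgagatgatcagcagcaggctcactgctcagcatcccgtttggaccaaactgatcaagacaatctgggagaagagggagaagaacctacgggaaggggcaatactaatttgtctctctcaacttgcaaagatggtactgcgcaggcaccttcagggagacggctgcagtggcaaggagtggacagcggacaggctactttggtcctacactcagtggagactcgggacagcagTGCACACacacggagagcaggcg
The Mt1 promoter held 3 metal response matches, at positions -23, 3 and 21 from the start site. That of Mt2 held 4, at -223, -128, -50 and 5, the last 2 on the minus strand, together with an antioxidant response match, TGACTCAGC, at -79. In the Mt3 promoter there was 1 metal response match, at 28. These positions are from the RefSeq start site, which is 46 bases before the GENCODE start of the counted transcript in Mt2, 7 bases after it in Mt1 and the same base in Mt3.

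Among 32851 mouse promoters of the same length, 25.7% held at least 1 match to either metal form, 7.11% at least 2, 1.97% at least 3 and 0.517% at least 4. Taken singly, TGCGCNC occurred in 15.4% of promoters, TGCACNC in 12.6% and TGACNNNGC in 12.4%. A promoter sequence was available for 9 of the 10 members, all but Hmox1. Within these windows, metal response matches occurred in 3 of the members, all metallothioneins, and antioxidant response matches in 2, Mt2 and Sod1. The match of Sod1 was TGACCACGC on the minus strand at -56 from the RefSeq start, which is 8 bases after that of the counted transcript. A match describes letters in the window and does not show that a factor binds there. Bases outside the window were not searched, so a gene without a match here may hold one elsewhere.

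Mt1, whose promoter held 3 metal response matches, binds zinc and copper in the cytosol. It had 1107, 1061, 1252 and 1054 counts in APP-3, APP-4, WT-1 and WT-2, which are 38.2, 34.3, 28.5 and 29.7 CPM. Both APP libraries were above both WT libraries, and the gap between the groups was of about the same size as the gap between the APP libraries themselves. The means were 36.2 ± 2.76 CPM (standard deviation, SD, n = 2) in APP and 29.1 ± 0.879 CPM in WT. The log2 fold change was 0.31 ± 0.08 (SE; 95% interval 0.13 to 0.50), or 1.24-fold, with an edgeR p of 0.00445 and an adjusted p of 0.149. Leaving out 1 library gave values from 0.24 without APP-3 to 0.39 without APP-4. The 95% interval ended below the threshold of 0.585 that corresponds to 1.5-fold.

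Mt2, with 4 such matches, encodes a protein much like that of Mt1. It gave 426, 338, 440 and 332 counts, or 14.7, 10.9, 10 and 9.37 CPM in the same order. APP-3 stood apart from the other libraries, and APP-4 was just above WT-1. The log2 fold change was 0.40 ± 0.15 (95% interval 0.05 to 0.74; edgeR p 0.0284, adjusted p 0.325). Leaving out APP-4 gave 0.60, and leaving out APP-3 gave 0.17.

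Mt3, with 1 such match, is the metallothionein typical of neural tissue. It had 38.9, 43.2, 36.3 and 38.3 CPM. Here APP-4 was the highest library, where Mt1 and Mt2 had APP-3 highest, and APP-3 was level with WT-2 to within 1 CPM. APP over WT, this was a log2 fold change of 0.14 ± 0.08 (95% interval -0.04 to 0.32; edgeR adjusted p 0.55). Without APP-3 it was 0.21, and without APP-4 0.06.

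Hmox1 (chr8:75093621-75100589) encodes the inducible heme oxygenase, which breaks heme down to biliverdin, iron and carbon monoxide. It was sparsely counted, with 130, 98, 102 and 104 counts, or 4.48, 3.16, 2.32 and 2.93 CPM. The APP-3 library was the highest, while APP-4 was close to WT-2. The log2 fold change of 0.54 ± 0.23 had the widest 95% interval of the 10 members, 0.03 to 1.06 (edgeR p 0.0412, adjusted p 0.379). Leaving out APP-3 gave 0.28, and leaving out APP-4 gave 0.78. Its constitutive relative Hmox2 had a log2 fold change of 0.01 (adjusted p 0.974) with overlapping groups.

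The library APP-4 decided whether the members with the lowest p were called. When it was left out, the log2 fold change from edgeR was 0.39 for Mt1 (adjusted p 0.00305), 0.60 for Mt2 (adjusted p 0.00199) and 0.78 for Hmox1 (adjusted p 0.0306). In that fit 3 members had an adjusted p under 0.05 and 2, Mt2 and Hmox1, also passed the fold threshold. The same fit called 473 features past both thresholds, against 162 with all libraries, and it assumes that the lone APP library varies like the WT libraries. It also gave the housekeeping gene Gapdh an adjusted p under 0.05, at a log2 fold change of -0.21. Over the fits that left out 1 library, the adjusted p ran up to 0.612 for Mt1, 0.908 for Mt2 and 0.959 for Hmox1. With all libraries, the other tests, scalings, filters and gene sums gave adjusted p from 0.0524 to 0.215 for Mt1, 0.249 to 0.518 for Mt2 and 0.332 to 0.794 for Hmox1.

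Nqo1, on the minus strand at chr8:107388225-107403206, encodes a quinone reductase. It had 88, 105, 141 and 89 counts, or 3.03, 3.39, 3.21 and 2.51 CPM. The groups overlapped, as WT-1 lay between the APP libraries. Nqo1 had a log2 fold change of 0.16 ± 0.20 (95% interval -0.29 to 0.62; edgeR adjusted p 0.824), an interval that holds differences of either sign. Leaving out 1 library gave values from 0.0059 without WT-2 to 0.36 without WT-1.

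Gpx1 (chr9:108338903-108340343) encodes the cytosolic glutathione peroxidase, and its libraries were the most alike within groups. It had 24.3 and 24.1 CPM in APP-3 and APP-4 against 22.1 and 22.3 CPM in WT-1 and WT-2. Group means of 24.2 ± 0.174 and 22.2 ± 0.17 CPM (SD, n = 2) left a clear gap, yet the difference was small. The log2 fold change was 0.12 ± 0.08 (95% interval -0.05 to 0.30; edgeR adjusted p 0.586), where the SE draws on the spread of all features, and it lay between 0.116 and 0.135 whichever library was left out.

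Gpx4 (chr10:80047166-80056439) reduces lipid hydroperoxides within membranes, the step whose failure leads to ferroptosis. It had 92.6, 115, 101 and 107 CPM, with the WT libraries lying between the APP libraries. Its log2 fold change of 0.00 ± 0.10 (95% interval -0.22 to 0.23; edgeR adjusted p 0.999) came with a difference within the APP group. Leaving out APP-3 gave 0.15, and leaving out APP-4 gave -0.16. The values for Gpx4 are uncertain for another reason: 57.8% of the 31-base stretches in its transcripts also occur in transcripts of other genes, 57.4% in the pseudogene Gpx4-ps2. The table holds 0 transcripts of that pseudogene, and how many reads of the shared stretches came from it was not tested.

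Sod1 (chr16:90220754-90226329) encodes the copper and zinc superoxide dismutase of the cytosol. It had 69.7, 70.5, 63.4 and 67.5 CPM, and the APP libraries were nearly equal and above both WT libraries. Its log2 fold change was 0.10 ± 0.07 (95% interval -0.05 to 0.25; edgeR adjusted p 0.617), and 0.06 without WT-1 and 0.15 without WT-2. It too is uncertain, since 35.4% of its 31-base stretches occur in other transcripts, 34.9% in the pseudogene Gm8566. The table has 0 transcripts that are annotated to Gm8566. Ccs, which hands copper to the Sod1 protein, had overlapping groups, and its log2 fold change was 0.04 (adjusted p 0.963).

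Sod2 (chr17:13006846-13040063), the manganese enzyme of mitochondria, had the most counts of the members, 5776, 5386, 8164 and 6720. These are 199, 174, 186 and 190 CPM, so that APP-3 was the highest library and APP-4 the lowest. The log2 fold change was -0.01 ± 0.08 (95% interval -0.19 to 0.17; edgeR adjusted p 0.981), and it became -0.11 when APP-3 was left out and 0.09 when APP-4 was. Cat (chr2:103453849-103485160, minus strand), which breaks down hydrogen peroxide in peroxisomes, had 24.6, 23.2, 20.9 and 22.7 CPM, with APP-4 barely above WT-2. Its log2 fold change was 0.13 ± 0.08 (95% interval -0.06 to 0.33; edgeR adjusted p 0.589), and 0.08 without WT-1 and 0.20 without WT-2.

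**Figure D2:**
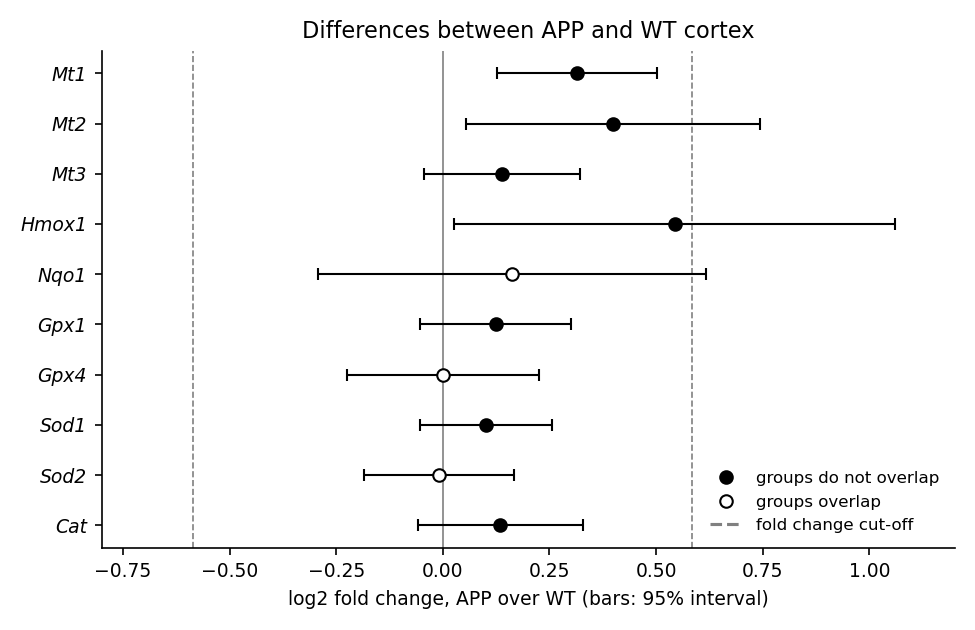
Log2 fold change of each member, APP over WT, with its 95% interval from the edgeR fit; filled points have groups that do not overlap, and dashed lines mark a 1.5-fold difference at 0.585. The intervals of Mt1, Mt2 and Hmox1 lie above 0, and those of the other 7 members include 0.

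Levels were compared between genes as CPM per kilobase of transcript, since long transcripts give more reads. In WT the order of mean levels was Gpx4 at 105, Sod1 at 102, Mt3 at 69.6, Mt1 at 53.0, Sod2 at 32.0, Gpx1 at 20.7, Mt2 at 19.0, Cat at 8.35, Nqo1 at 1.84 and Hmox1 at 1.67 CPM per kilobase. The first level was 62.4 times the last. In APP the mean levels in the same order were 105, 109, 76.6, 65.9, 31.8, 22.6, 25.0, 9.16, 2.07 and 2.44 CPM per kilobase. Neighbours in the order whose libraries overlapped were Gpx4 with Sod1 and Nqo1 with Hmox1 in both groups, and Gpx1 with Mt2 in APP.

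Ratios between related genes were taken within each group. Per kilobase, the level of Mt3 was 1.31 times that of Mt1 in WT and 1.16 times in APP. Mt1 stood at 2.80 times the level of Mt2 in WT and 2.63 times in APP. The cytosolic Sod1 exceeded the mitochondrial Sod2 by 3.19 times in WT and 3.44 times in APP, and Gpx4 exceeded Gpx1 by 5.05 times and 4.64 times. The large count of Sod2 thus went with a transcript of 5861 bases, against 641 bases for Sod1. Levels per kilobase rest on the annotated length of each counted transcript, which for Sod2 is 1 of 8 in GENCODE. Which lengths were present in the cortex was not tested. The levels of Sod1 and Gpx4 also carry the uncertainty from shared stretches given above.

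**Figure D3:**
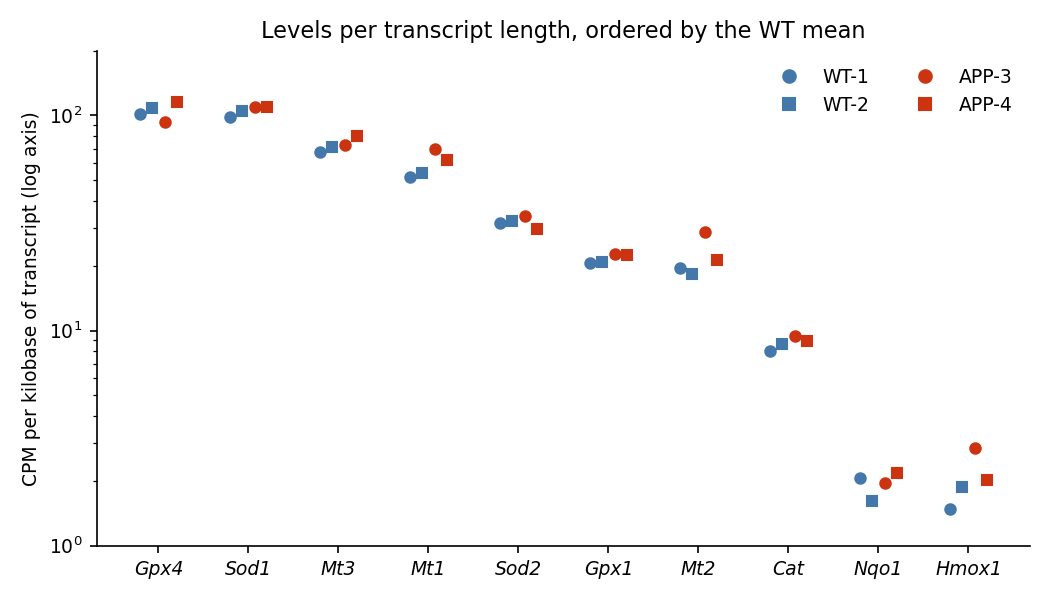
Level of each member in each library as CPM per kilobase of transcript on a log axis, ordered by the WT mean, with WT in blue and APP in red. Gpx4 and Sod1 lie near 100 CPM per kilobase, and Nqo1 and Hmox1 lowest.

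Beyond the 10 members, 140 other genes of the antioxidant and metal pathways were listed in 11 lists, and 131 of them were counted. Mt4, Gpx5, Gpx6, Ncf4, Nox1, Nox3, Noxa1, Duox1 and Duox2 were not in the table and are not analysed here. Of the 131, 3 had an adjusted p under 0.05 in edgeR's quasi-likelihood fit, where 1.14% of all features did, and all 3 were higher in APP. That count was 15 without APP-3, 10 without APP-4, 1 without WT-1 and 0 without WT-2. At an unadjusted p under 0.05 there were 18 higher and 8 lower, where 7.36% of all features were higher and 4.78% lower at that p. Log2 fold changes were positive in 73 and negative in 58, with a median of 0.03, and the groups did not overlap in 40 genes higher and 20 lower in APP, where 21.3% and 21.4% of all features did so.

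Mtf1, the zinc sensor that drives Mt1 and Mt2, had 23.4, 25.6, 25.6 and 26.2 CPM in APP-3, APP-4, WT-1 and WT-2, and its log2 fold change was -0.08 (edgeR adjusted p 0.787). The zinc exporter Slc30a1, also driven by MTF1, had 42.8, 41.6, 38.0 and 41.4 CPM and a log2 fold change of 0.09 (adjusted p 0.718). The groups overlapped for Mtf1, and for Slc30a1 the lower APP library was barely above the higher WT library. Of the 17 counted zinc genes 6 were positive and 11 negative, with a median of -0.04, and at an unadjusted p under 0.05 there were 3 lower and 0 higher, against 4.78% and 7.36% of all features. The most abundant of them per length, the zinc importer Slc39a10, had a log2 fold change of -0.15 (adjusted p 0.433). In the copper list 7 of 11 genes were positive, with a median of 0.04, and its most abundant gene, the copper chaperone Cox17, had 0.11 (adjusted p 0.666).

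The NRF2 side gave mixed values. Nfe2l2, the gene of NRF2 itself, had 13.9 and 14.3 CPM in APP against 11.4 and 10.1 CPM in WT, with no overlap and a log2 fold change of 0.40 ± 0.11 (edgeR adjusted p 0.181). Bach1, its opponent at the Hmox1 promoter, had 20.9 and 20.2 CPM against 15.3 and 17.3 CPM, and a log2 fold change of 0.34 ± 0.09 (adjusted p 0.181). Nfe2l2 passed an adjusted p of 0.05 without APP-3, at 0.42, and Bach1 without APP-4, at 0.37. Over all fits that left out 1 library, Nfe2l2 ran from 0.32 to 0.49 and Bach1 from 0.25 to 0.43. Keap1 had 0.08 (adjusted p 0.768) with overlapping groups. Over the 13 genes of this list 10 were positive, with a median of 0.04, and the most abundant, Sqstm1, had 0.03 (adjusted p 0.935).

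The log2 fold changes of other standard NRF2 targets lay on both sides of 0. Slc7a11, the cystine importer, had a log2 fold change of 0.25 (edgeR adjusted p 0.234), with 126 and 124 CPM in APP and 113 and 97.0 CPM in WT. It passed an adjusted p of 0.05 without APP-3, at 0.24, and without APP-4, at 0.27, but not without WT-1, at 0.37, or WT-2, at 0.15. The glutamate cysteine ligase subunits Gclc and Gclm had -0.01 (adjusted p 0.977) and 0.03 (adjusted p 0.907). Txnrd1 and Srxn1, which recycle thioredoxin and peroxiredoxins, had -0.11 (adjusted p 0.6) and -0.13 (adjusted p 0.497), with both APP libraries below both WT libraries in each.

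Among genes that make and recycle glutathione, Idh1, a cytosolic source of NADPH, was called. It had 51.4 and 51.6 CPM in APP-3 and APP-4 against 37.8 and 40.1 CPM in WT-1 and WT-2, with a log2 fold change of 0.40 ± 0.07 (edgeR adjusted p 0.0348, higher in 2 of 2 APP libraries). The call was lost without WT-1, at 0.36, and without WT-2, at 0.45. Over the 22 genes of that list 10 were positive and 12 negative, with a median of -0.00, and the most abundant, Slc3a2, had 0.03 (adjusted p 0.927). The glutathione transferases had 12 of 20 positive and a median of 0.10, and the most abundant of them, Gstm5, had -0.21 (adjusted p 0.236). Of the 8 heme and quinone genes 5 were positive, with a median of 0.02, and Hmox2 was the most abundant.

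With all libraries, other enzymes that act on peroxide and superoxide had no call. The 4 counted relatives of Gpx1 and Gpx4 were all positive, with log2 fold changes of 0.40 for Gpx2, 0.71 for Gpx3, 0.25 for Gpx7 and 0.31 for Gpx8, the most abundant per length, but all were sparse, the group means lying under 2 CPM. Leaving out 1 library gave values from 0.12 to 0.73 for Gpx2, 0.54 to 0.94 for Gpx3, 0.14 to 0.36 for Gpx7 and 0.25 to 0.37 for Gpx8. The lowest adjusted p of these was that of Gpx3, 0.326. The secreted Sod3 had 28, 28, 24 and 16 counts and a log2 fold change of 0.89 (edgeR adjusted p 0.379). Among the 16 peroxiredoxin and thioredoxin genes 6 were positive and 10 negative, with a median of -0.02. Prdx6, made largely in astrocytes, had 105 and 127 CPM in APP and 94.1 and 89.6 CPM in WT, and a log2 fold change of 0.33 (adjusted p 0.172). Prdx1, the most abundant of the list, had 0.21 (adjusted p 0.235) and Prdx4 0.22 (adjusted p 0.583). Without APP-3, Prdx1 and Prdx6 had an adjusted p under 0.05, at 0.23 and 0.47. Over the fits that left out 1 library, Prdx1 ran from 0.17 to 0.26 and Prdx6 from 0.19, without APP-4, to 0.47. The neuronal Prdx2 had -0.01 (adjusted p 0.966), the mitochondrial Prdx3 -0.01 (adjusted p 0.979) and Prdx5 -0.17 (adjusted p 0.334). The methionine sulfoxide and selenoprotein list had 5 of 11 positive and a median of -0.02, and its most abundant gene, Selenow, had -0.03 (adjusted p 0.957), which became -0.25 with an adjusted p under 0.05 without APP-4 and 0.16 without APP-3.

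The list with the highest median, apart from Sod3 alone, held the subunits of NADPH oxidase, which makes superoxide in phagocytes instead of removing it. Of its 8 counted genes 7 were positive, with a median of 0.49. The membrane subunit Cyba had 3.52 and 3.68 CPM in APP against 1.66 and 1.18 CPM in WT, a log2 fold change of 1.33 ± 0.23 (edgeR adjusted p 0.0335, higher in 2 of 2 APP libraries). The cytosolic organiser Ncf1 had 8.20 and 8.39 CPM against 4.87 and 4.57 CPM, a log2 fold change of 0.81 ± 0.14 (adjusted p 0.0325, likewise in 2 of 2). Both passed the fold threshold as well. Cyba lost its call without WT-2, at 1.12, and Ncf1 without WT-1, at 0.86, and without WT-2, at 0.77. The most abundant gene of the list, Rac1, which serves many other pathways, had 0.06 (adjusted p 0.829). All 16 microglia markers were also positive, with a median of 0.83 and a summed level 1.87 times higher in APP, and their part in the values of Cyba and Ncf1 was not tested. In bulk tissue more cells of a type and more RNA per cell cannot be told apart, and neither can fewer cells and less RNA per cell.

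**Figure D4:**
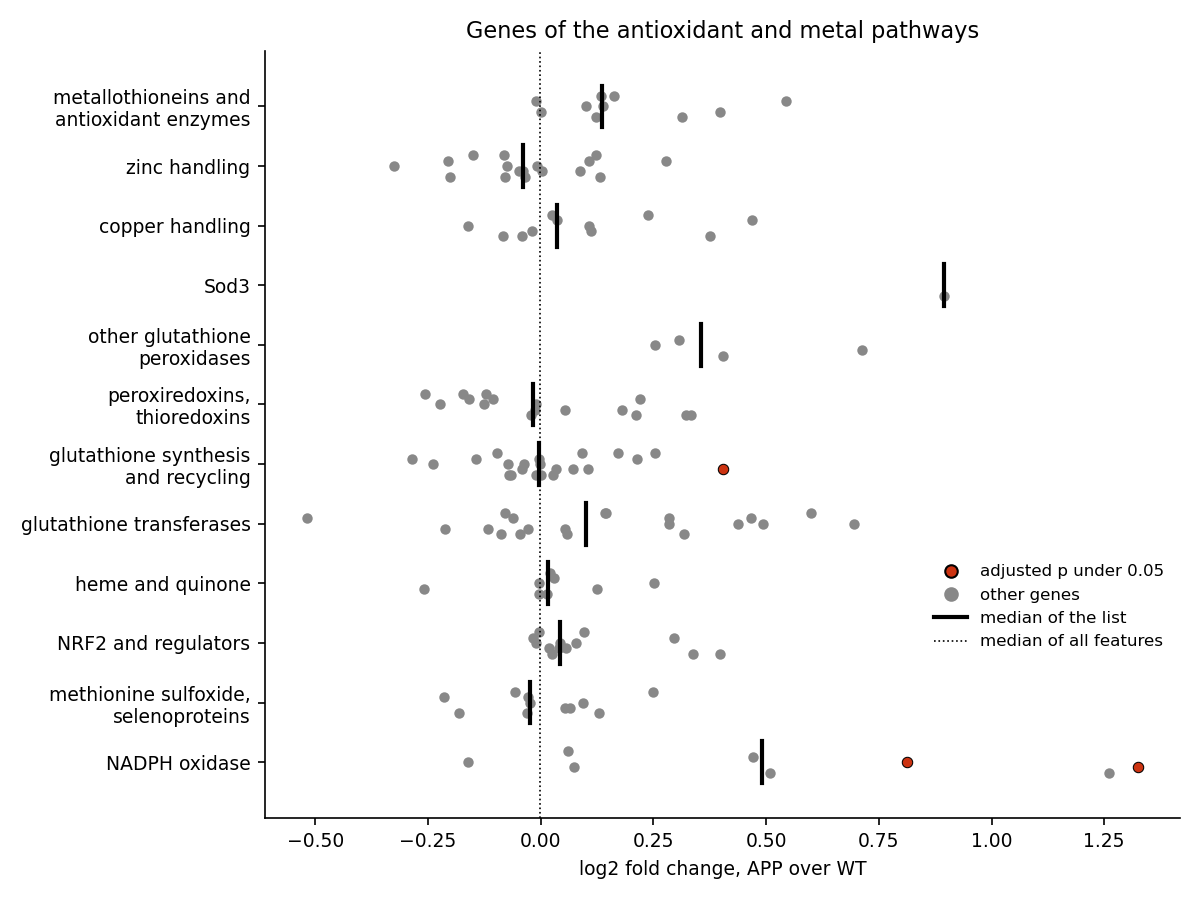
Log2 fold change, APP over WT, of the 10 members and of each counted gene in the 11 other lists; red points have an adjusted p under 0.05, thick bars are list medians and the dotted line is the median of all features. The red points are Idh1, Cyba and Ncf1, and the median of the members is 0.14.

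Markers of cell types were read because members are made at different levels in different cells. For microglia all 16 markers had positive log2 fold changes, with a median of 0.83, and 10 had an adjusted p under 0.05, among them Cx3cr1, Csf1r, Cd68, Trem2, Tyrobp, C1qa, C1qc, Ctss and Siglech. Siglech lost its call without WT-2, at 0.60. Their summed level was 603 and 729 CPM in APP-3 and APP-4 and 352 and 359 CPM in WT-1 and WT-2, 1.87 times higher in APP. APP-4 had the higher sum of the APP libraries, and the part of microglia in the values of the members was not tested.

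For astrocytes 13 of 15 markers were positive, with a median of 0.16, and the summed level was 6310, 6782, 5812 and 5445 CPM in the same order of libraries. Those with an adjusted p under 0.05 were Gfap, with a log2 fold change of 2.82 (edgeR adjusted p 8.08e-06), and Aqp4, with 0.72 (adjusted p 0.00384). The most abundant, Glul, had -0.00 (adjusted p 0.99), a sign that changed with library totals in place of TMM scaling and in other settings. The summed level was thus 1.16 times higher in APP, and APP-4 had the higher sum of the APP libraries. The median of the markers was 0.30 without APP-3 and 0.25 without WT-1, but 0.11 without APP-4. The oligodendrocyte sum was 2077 and 1805 CPM in APP against 1343 and 1491 CPM in WT, or 1.37 times higher. Here APP-3 was the higher of the APP libraries. All 12 of its markers were positive, with a median of 0.46. In this list 4 had an adjusted p under 0.05, among them Mag, Mobp and Cnp, of which Mobp and Cnp lost their calls without WT-1, at 0.41 and 0.45, and Mobp also without WT-2, at 0.46. The most abundant, Mbp, had 0.29 (adjusted p 0.162), and it passed an adjusted p of 0.05 without APP-3, at 0.21, and without APP-4, at 0.36. The part of these cell types in the values of the members was not tested.

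The remaining lists gave no marker with an adjusted p under 0.05 in the edgeR fit of all libraries. Neuron markers summed to 5538, 4726, 5250 and 5208 CPM, with 3 of 13 positive and a median of -0.07, or -0.04 without APP-4, and the most abundant, Snap25, had a log2 fold change of -0.13, called without APP-3, at -0.24, and at -0.03 without APP-4. Endothelial markers summed to 109, 106, 118 and 107 CPM, with 3 of 12 positive and a median of -0.08, or 0.02 without WT-1, and Slco1a4, the most abundant, had 0.05. Of the 8 choroid plexus markers 4 were counted, at sums of 7.07, 7.39, 5.28 and 7.62 CPM and a median of -0.11, or 0.66 without WT-2, with Ttr the most abundant. Red blood cell markers, which bear on Cat, Prdx2 and Gpx1 because red cells are rich in their products, summed to 136, 90.7, 188 and 88.6 CPM, with a median of -0.25 over 5 genes, or 0.47 without WT-1, and Hbb-bs the most abundant. Hbb-bs had an adjusted p under 0.05 without APP-3 and, at -0.75, without WT-2. The summed level was highest in WT-1 and lowest in WT-2. In APP-3, APP-4, WT-1 and WT-2, Cat had 24.6, 23.2, 20.9 and 22.7 CPM. Gpx1 had 24.3, 24.1, 22.1 and 22.3 CPM in that order, and Prdx2 had 106, 102, 104 and 107 CPM. The part of blood in those values was not tested.

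**Figure D5:**
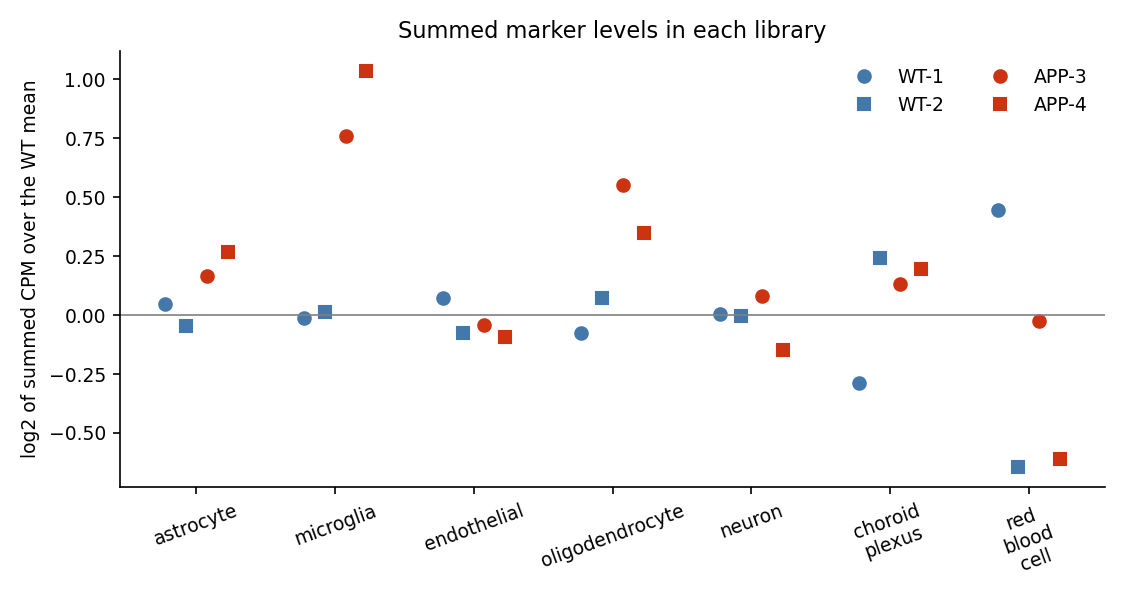
Summed CPM of each cell type's markers in each library, as log2 over the WT mean of the same list, with WT in blue and APP in red. The astrocyte, microglia and oligodendrocyte sums lie above WT in both APP libraries, and the red blood cell sum differs most within groups.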

How the data were processed

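The authors made rRNA-depleted, strand-specific libraries, aligned paired reads to mouse Ensembl transcripts with FANSe2, and deposited read counts per transcript for transcripts with at least 10 reads. Their notes name CASAVA 1.8, edgeR and the build hg19, although the identifiers are mouse. The deposited per-library CPM and the columns of log2 fold change, p-value and FDR were not used.

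Of 37539 transcripts, 36858 (98.2%) were matched to GENCODE M21 by identifier and their counts summed per gene, and 681 unmatched were kept alone. The design named sums per deposited symbol, which find only 3 members, so sums by identifier replaced it. All 18386 features, with at least 10 counts over the libraries, entered edgeR's quasi-likelihood fit (edgeR 4.0.16, R 4.3.3) with TMM scaling and Benjamini-Hochberg adjustment. The common dispersion was 0.00778. CPM use TMM library sizes. DESeq2 (1.42.0) was an alternative. Intervals are those of the edgeR fit.

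Named were all members, listed pathway genes with an adjusted p under 0.05, each list's most abundant gene, fixed partners, markers called or most abundant, and label checks. Members and lists were chosen with earlier results of these data known.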

Additional observations from a re-analysis of the deposited data

How the results depend on the processing

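No paired analysis was possible because the WT columns are numbered 1 and 2 and the APP columns 3 and 4, so the replicate block was not run. With all libraries, the 0 members called under either rule remained 0 under edgeR's likelihood ratio and exact tests, DESeq2, library totals, DESeq2 size factors, at least 10 counts in every library, transcripts and coding transcripts. A 2-fold threshold could not raise a count of 0, and dropping the filter left the same features. Sums by identifier, and symbols read ignoring case, were chosen after seeing the data. The planned sums per deposited symbol, spelled exactly, hold 3 members and give 1 pathway gene with an adjusted p under 0.05 in place of 3. Ignoring case, Gpx4 was -0.053, in a sum that also held a transcript of Hnrnpll deposited under the symbol GPX4. That transcript had 1477, 1448, 2335 and 2033 counts in APP-3, APP-4, WT-1 and WT-2. Features past both thresholds numbered 162, against 391 with the likelihood ratio test, 354 with the exact test and 303 with transcripts. Over these settings log2 fold changes ran from 0.31 to 0.32 for Mt1, 0.40 to 0.41 for Mt2 and 0.54 to 0.55 for Hmox1. With transcripts, where the one with the lowest p stands for a gene, Hmox2 was -0.80, Keap1 -0.61, Sqstm1 -0.35 and Glul 1.96, and Prdx5 was -1.0015, Prdx2 -0.34, Slc3a2 0.13, Gpx4 0.09, Gapdh -0.22 and Actb 0.19. Glul was 0.0008 with library totals and 0.001 with symbols ignoring case. Mobp lost its call with library totals (0.44), DESeq2 size factors (0.43), coding transcripts (0.38) and symbols ignoring case (0.38), and Mbp gained one with DESeq2 (0.29) and transcripts (0.36). Beyond that added transcript, no cause of these changes was tested.

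Leaving out 1 library at a time, where the lone library is assumed to vary like the other group, members past both thresholds ran from 0 to 2, members with an adjusted p under 0.05 from 0 to 3, and pathway genes from 0 to 15. The fits called 602 features without APP-3, 473 without APP-4, 151 without WT-1 and 135 without WT-2. Log2 fold changes of these genes changed sign: Gpx4 ran from -0.16 to 0.15, Sod2 from -0.11 to 0.0879, Ccs from -0.19 to 0.24, Prdx2 from -0.0396 to 0.0169, Prdx3 from -0.0559 to 0.0369, Hmox2 from -0.0864 to 0.11, Gclc from -0.0386 to 0.0208, Slc3a2 from -0.0244 to 0.0813, Sqstm1 from -0.0487 to 0.10, Selenow from -0.25 to 0.16, Rac1 from -0.0374 to 0.16, Glul from -0.0126 to 0.007, Slco1a4 from -0.0127 to 0.11, Ttr from -1.16 to 1.12, Hbb-bs from -0.75 to 0.32 and Actb from -0.0541 to 0.0647. Siglech lost its call without WT-2 (0.60), Mobp without WT-1 (0.41) and without WT-2 (0.46), and Cnp without WT-1 (0.45). The cause was not tested. Depth was lowest for Hmox1 and Nqo1, with at most 141 counts in a library. They also had the widest intervals of the members.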
